A study of Mus musculus with 6 samples.

Results

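The genes described here mark the oligodendrocyte lineage: 28 genes chosen by name, 12 of oligodendrocyte precursors and 16 of maturing oligodendrocytes and myelin, among 49585 genes listed for each library. All 28 names were found on 1 row each. They were followed in mGB2, a mouse glioblastoma line labelled as glioblastoma stem cells, in 3 Bcat1-KO libraries and 3 Control libraries. Bcat1 encodes the cytosolic branched-chain amino acid aminotransferase. The Control is the NT arm of the same line, and neither arm was treated. Both arms grew attached to matrix-coated plates, in DMEM:F12 with N2, B27, EGF and FGF, until confluency. The labels name no clone, guide or separate culture for a replicate, so a p-value here reflects spread among these libraries alone, which may be technical. The question put by the series is which genes differ once Bcat1 is targeted, and its title speaks of cell plasticity.

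Oligodendrocyte precursors are dividing glial cells that carry the transcription factors Olig1 and Olig2 and coat themselves with chondroitin sulfate proteoglycans. When they mature they switch on a further set of factors, among them Myrf, then the enzymes that make galactolipids, and lastly the proteins of the myelin sheath. Many gliomas keep Olig2 and other precursor genes without making myelin.

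Libraries held 35608024 to 37800648 reverse-strand gene counts in Bcat1-KO and 29543157 to 33550412 in Control, so that 3 counts in 1 library equal 0.078 to 0.0831 CPM in Bcat1-KO and 0.0904 to 0.103 CPM in Control. CPM here is the count scaled to the TMM-adjusted library total. The targeted gene was still transcribed, with 168 ± 11.5 CPM in Bcat1-KO and 223 ± 9.26 CPM in Control (mean ± SD, n = 3 each). No label names the edited site, so this level does not test the knockout. Of 14020 genes tested with edgeR's quasi-likelihood test, 62.3% passed a Benjamini-Hochberg adjusted p of 0.05. Of the tested genes 32% were higher and 30.3% lower in Bcat1-KO, and every count below is to be read against those shares.

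The precursor genes were mostly active in both arms, and the myelin genes were mostly not. Of the 12 precursor genes 10 passed the filter on low counts, and 8 of these were higher and 2 lower in Bcat1-KO. Of the 8, 7 were higher by 2-fold or more, as were 9.76% of all tested genes. Of the 16 myelin genes 6 passed the filter, with 4 higher, 1 lower and 1 not past the threshold. The median log2 fold change was 1.52 over the tested precursor genes and 0.48 over the tested myelin genes, beside 0.01 over all genes tested. A gene that passes the filter through 1 arm alone has to differ, so these counts and medians describe the genes and are no test of the lists. Added up, the precursor genes took 2784 to 3275 CPM in Bcat1-KO libraries and 1771 to 1881 CPM in Control libraries. The myelin genes took 682 to 825 CPM in Bcat1-KO libraries and 522 to 542 CPM in Control libraries, nearly all of it from Qk, Bcas1 and Cnp. In bulk RNA a change in how many cells express a gene and a change in RNA per cell cannot be told apart.

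**Figure D1:**
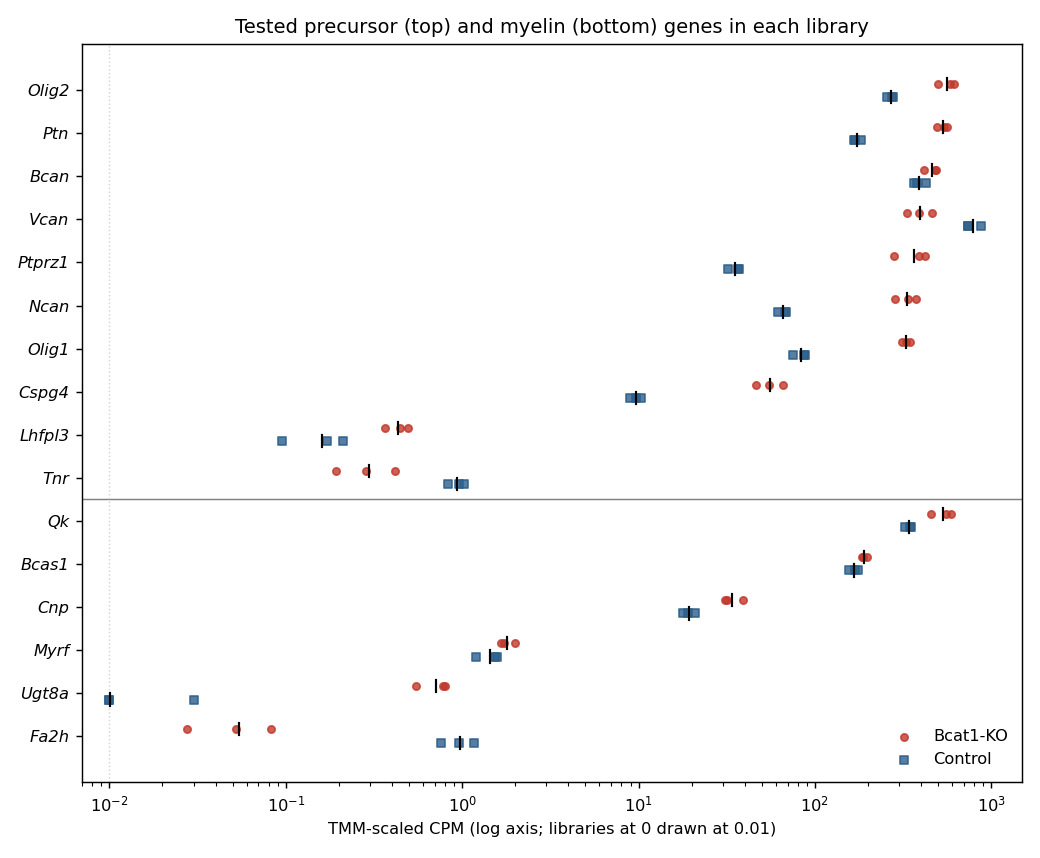
TMM-scaled CPM (log axis) of the 16 tested genes in each library, precursor genes above the line and myelin genes below it, with Bcat1-KO as circles, Control as squares and the group mean as a bar. The arms separate widely for Ptprz1, Ncan, Olig1 and Cspg4, and Vcan lies lower in Bcat1-KO.

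Olig1 and Olig2, the basic helix-loop-helix factors that specify the lineage, were both higher in Bcat1-KO. Olig2 (ENSMUSG00000039830.8, chr16:91225550-91228677, mm10) stood at 497, 581 and 612 CPM in Bcat1-KO, against 256, 274 and 276 CPM in Control. Olig1 (ENSMUSG00000046160.6, chr16:91269772-91271933) stood at 326, 310 and 343 CPM in Bcat1-KO, against 75.1, 87.3 and 86.2 CPM in Control. The arms did not overlap for either gene. Olig2 rose by a log2 fold change of 1.07 ± 0.09 (SE, edgeR adjusted p = 5.97e-07), and Olig1 by 1.98 ± 0.08 (SE, edgeR adjusted p = 1.15e-09). Although they neighbour each other on chromosome 16, the pair did not change by the same amount. Per length, the log2 ratio of Olig1 to Olig2 TPM was -0.61 ± 0.16 in Bcat1-KO and -1.53 ± 0.06 in Control (SD, n = 3 each). Olig1 thus stayed below Olig2 in all 6 libraries but came nearer to it in Bcat1-KO. A 2-sided exact permutation test of this ratio gave p = 0.1, the smallest that 3 against 3 libraries allow, and 0.12 after adjustment over the 6 ratios and sums tested in this way. At 758 ± 91.7 TPM in Bcat1-KO and 348 ± 12.7 TPM in Control, Olig2 ranked at percentile 98.9 of the tested genes in Bcat1-KO and 97.3 in Control.

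Ptprz1 had the largest change among the tested precursor genes. It encodes a receptor-type tyrosine phosphatase that carries chondroitin sulfate chains, and its ligand is pleiotrophin, the product of Ptn. Ptprz1 (ENSMUSG00000068748.7, chr6:22875502-23052916) held 282, 388 and 422 CPM in Bcat1-KO, against 32.3, 36.9 and 36.5 CPM in Control. Replicate 1 was the lowest of the Bcat1-KO libraries and still lay far above every Control library. The log2 fold change was 3.37 ± 0.14 (SE, edgeR adjusted p = 1.43e-09), or 10.3-fold. Per length, Ptprz1 ranked at percentile 83.1 of the tested genes in Bcat1-KO and percentile 33.1 in Control. Its ligand gene Ptn (ENSMUSG00000029838.11, chr6:36714929-36810220) held 493, 538 and 564 CPM in Bcat1-KO, against 169, 183 and 167 CPM in Control. Ptn rose by a log2 fold change of 1.62 ± 0.08 (SE, edgeR adjusted p = 5.16e-09), so ligand and receptor were both higher. On the TPM scale the log2 ratio of receptor to ligand was -2.62 ± 0.21 in Bcat1-KO and -4.35 ± 0.10 in Control (SD, n = 3 each), without overlap (exact permutation p = 0.1, 2-sided, the smallest possible; 0.12 adjusted).

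Cspg4, the NG2 proteoglycan by which precursors are commonly recognised, was also higher. Cspg4 (ENSMUSG00000032911.6, chr9:56865033-56899870) held 65.8, 46.1 and 54.9 CPM in Bcat1-KO, against 8.97, 9.61 and 10.3 CPM in Control. Every Bcat1-KO library was above every Control library, and replicate 1 was the highest of them. The log2 fold change was 2.53 ± 0.13 (SE, edgeR adjusted p = 8.25e-09).

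The lecticans, matrix proteoglycans that bind hyaluronan, did not change together. Ncan (neurocan, ENSMUSG00000002341.8, chr8:70093085-70120873) held 373, 285 and 335 CPM in Bcat1-KO, against 68.8, 61.6 and 67.8 CPM in Control. It rose by a log2 fold change of 2.33 ± 0.10 (SE, edgeR adjusted p = 1.98e-09), with no overlap between the arms. Vcan (versican, ENSMUSG00000021614.16, chr13:89655312-89742509) held 333, 390 and 461 CPM in Bcat1-KO, against 739, 738 and 870 CPM in Control. It fell, at a log2 fold change of -0.99 ± 0.11 (SE, edgeR adjusted p = 1.5e-05), and again the arms did not overlap. Bcan (brevican, ENSMUSG00000004892.13, chr3:87987531-88000230) held 413, 484 and 481 CPM in Bcat1-KO, against 426, 380 and 366 CPM in Control. Here the arms overlapped, since Control replicate 1 exceeded Bcat1-KO replicate 1. The log2 fold change of Bcan was 0.23 ± 0.09 (SE, edgeR adjusted p = 0.0327). It lost the call without Bcat1-KO replicate 2 or 3 (adjusted p = 0.121 and 0.114) and without Control replicate 2 or 3 (adjusted p = 0.131 and 0.163), and its adjusted p ran between 0.00347 and 0.163 over 14 alternatives.

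The make-up of the lecticans differed between the arms. Neurocan took 29.3%, 21.3% and 23.7% of the summed TPM of Ncan, Bcan and Vcan in Bcat1-KO, against 5.78%, 5.59% and 5.9% in Control. Versican took 13.1%, 14.5% and 16.2% in Bcat1-KO, against 30.9%, 33.4% and 37.7% in Control. The arms did not overlap in either share (exact permutation p = 0.1 each, 2-sided, the smallest possible; 0.12 adjusted). Brevican took 60.6 ± 3.29% in Bcat1-KO and 60.3 ± 3.51% in Control (SD, n = 3 each), and this difference was not detected (exact permutation p = 0.9, 0.9 adjusted). The summed level was 611 ± 42 TPM in Bcat1-KO and 503 ± 23.9 TPM in Control. These shares use 1 exonic length per gene, and the files do not separate versican splice forms of different length.

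**Figure D2:**
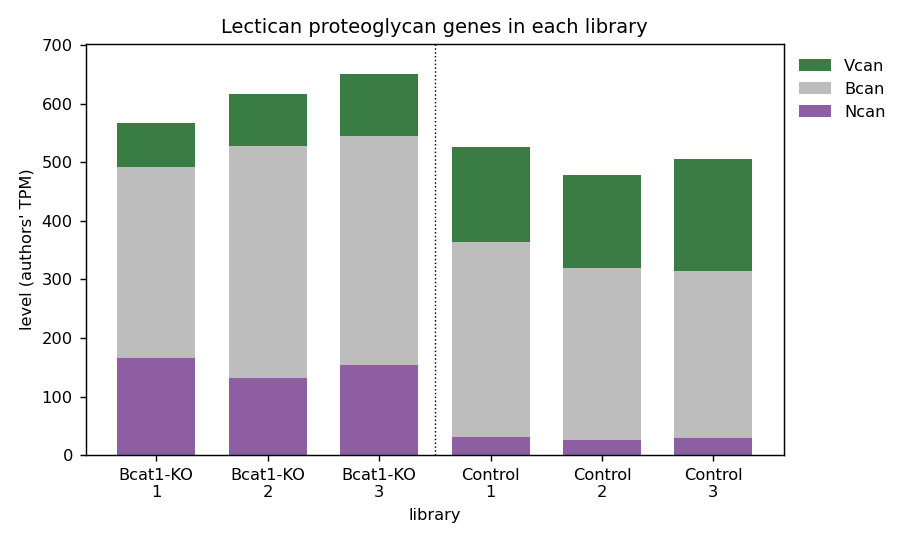
Authors' TPM of Vcan, Bcan and Ncan stacked for each library, Bcat1-KO left and Control right. Bcan fills a like part of each bar, Ncan a larger part in the Bcat1-KO libraries (21.3% to 29.3%) than in the Control libraries (5.59% to 5.9%), and Vcan a smaller one.

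The stretches just before the start of 4 of these genes are shown because they are the tested members with a mean of at least 10 CPM in 1 arm that changed most and have an entry in RefSeq's promoter table: Ptprz1, Cspg4 and Ncan among those higher and Vcan as the one lower. Capitals mark the motifs searched, the SOX cores ACAAAG and ACAATG on both strands and the E-box CAGCTG, which reads the same on both strands. Sequences are from RefSeq (GRCm38.p6), 5′ to 3′ on the strand of the gene, and end before the annotated start.
Ptprz1, chr6:22875252-22875501, plus strand: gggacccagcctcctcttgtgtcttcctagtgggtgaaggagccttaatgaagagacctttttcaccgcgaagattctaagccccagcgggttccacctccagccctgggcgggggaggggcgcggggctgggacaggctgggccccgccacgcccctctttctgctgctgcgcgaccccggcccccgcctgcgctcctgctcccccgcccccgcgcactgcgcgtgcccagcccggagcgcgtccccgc
Cspg4, chr9:56864854-56865032, plus strand: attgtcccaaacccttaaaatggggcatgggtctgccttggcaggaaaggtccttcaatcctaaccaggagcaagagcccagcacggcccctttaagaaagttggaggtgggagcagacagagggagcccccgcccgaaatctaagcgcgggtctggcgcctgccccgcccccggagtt
Ncan, chr8:70120874-70121094, minus strand: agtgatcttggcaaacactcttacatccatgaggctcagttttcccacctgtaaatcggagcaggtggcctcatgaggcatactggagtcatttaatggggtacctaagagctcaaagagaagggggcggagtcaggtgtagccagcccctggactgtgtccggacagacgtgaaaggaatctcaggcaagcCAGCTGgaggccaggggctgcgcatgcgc
Vcan, chr13:89742513-89742762, minus strand: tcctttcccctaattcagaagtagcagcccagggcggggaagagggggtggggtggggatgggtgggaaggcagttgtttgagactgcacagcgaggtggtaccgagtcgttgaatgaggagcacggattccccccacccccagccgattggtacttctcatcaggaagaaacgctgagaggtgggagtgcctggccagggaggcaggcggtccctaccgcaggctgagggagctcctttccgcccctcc

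Of these stretches that of Ncan alone held a searched motif, an E-box that begins 58 bases before the RefSeq start. That start, chr8:70120844, lies inside the deposited gene coordinates, so the stretch shown ends short of it. In the 250 bases before the start, 16.5% of the 32851 promoter windows in the table hold ACAAAG, 10.7% hold ACAATG and 13% hold CAGCTG. Windows were found for 21 of the 28 genes. Of the 12 tested genes with a window, 2 held ACAAAG, 1 held ACAATG and 2 held CAGCTG. Of the 9 untested genes with a window, 3 held ACAAAG, 2 held ACAATG and 0 held CAGCTG. The ratio of observed to expected CpG had a median of 0.582 over the tested genes, with a range of 0.147 to 1.184. Over the untested genes the median was 0.28, with a range of 0.128 to 0.758, and over all windows it was 0.373. The ranges overlap, and a match is only a match of letters.

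The remaining precursor genes were low or silent. Tnr, the matrix glycoprotein tenascin-R, had 7 to 15 counts in Bcat1-KO libraries and 24 to 32 in Control libraries, without overlap. Its log2 fold change was -1.64 ± 0.31 (SE, edgeR adjusted p = 0.000642). Other genes overlap Tnr on both strands, so its reads are uncertain. Lhfpl3, a tetraspan-like membrane protein used as a precursor marker, had 14 to 18 counts in Bcat1-KO and 3 to 7 in Control. Lhfpl3 passed the filter through Bcat1-KO alone and so had to differ. Its log2 fold change was 1.42 ± 0.39 (SE, edgeR adjusted p = 0.00761). With DESeq2 that call was lost (adjusted p = 0.0635), and the gene overlaps others on both strands, so its reads are uncertain. Neu4, a sialidase gene, and Gpr17, a receptor of precursors that are about to mature, had 0 reverse-strand counts in all 6 libraries.

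Among the myelin genes, Qk, Bcas1 and Cnp stood above 10 CPM in both arms. Qk, which encodes the RNA-binding protein quaking that controls splicing and stability of myelin transcripts (ENSMUSG00000062078.14, chr17:10206471-10319361), held 456, 555 and 594 CPM in Bcat1-KO, against 347, 325 and 350 CPM in Control. It rose by a log2 fold change of 0.65 ± 0.09 (SE, edgeR adjusted p = 9.07e-05), with no overlap. Bcas1, expressed as oligodendrocytes begin to myelinate (ENSMUSG00000013523.13, chr2:170346991-170427845), held 184, 188 and 197 CPM in Bcat1-KO, against 156, 176 and 169 CPM in Control. All Bcat1-KO libraries were above all Control libraries, but the log2 fold change was only 0.18 ± 0.07 (SE, edgeR adjusted p = 0.0339). The call of Bcas1 was lost without Bcat1-KO replicate 2 or 3 (adjusted p = 0.0644 and 0.117), without Control replicate 1 or 3 (adjusted p = 0.155 and 0.0946) and with no filter on low counts (adjusted p = 0.0633), and its adjusted p ran between 0.00431 and 0.155 over 14 alternatives.

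Myrf, the factor that drives the myelin genes (ENSMUSG00000036098.15, chr19:10208272-10240748), was low in both arms. It held 1.99, 1.72 and 1.65 CPM in Bcat1-KO, against 1.53, 1.21 and 1.58 CPM in Control. These values did not overlap, but the difference did not pass the test (log2 fold change 0.32 ± 0.20 SE, edgeR adjusted p = 0.19). Cnp, whose product is a phosphodiesterase of non-compact myelin (ENSMUSG00000006782.16, chr11:100574904-100591729), held 39, 30.8 and 31.9 CPM in Bcat1-KO, against 17.8, 20.9 and 19.1 CPM in Control. It rose by a log2 fold change of 0.81 ± 0.10 (SE, edgeR adjusted p = 3.25e-05). Dnajc7 overlaps Cnp on the other strand, and 54.9% of the stranded reads at Cnp lay on that strand. Those reads stood at 32.5 CPM in Bcat1-KO and 33.8 CPM in Control. The test with unstranded counts gave a log2 fold change of 0.80 for Cnp. Unstranded counts of Cnp were 568 to 1417 per library, beside 555 to 1406 on the reverse strand and 879 to 1401 on the forward strand. They thus left out nearly all forward-strand reads, so that test cannot show what the overlap does.

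Ugt8a and Fa2h, enzymes of the galactolipid pathway, changed in opposite directions at levels near the detection limit. Each passed the filter through 1 arm alone, Ugt8a through Bcat1-KO and Fa2h through Control, and so had to differ. Ugt8a, the ceramide galactosyltransferase that makes galactosylceramide, had 21 to 29 counts in Bcat1-KO libraries and 1 count in all Control libraries together. The ratio of the scaled counts was 65.9, with an exact 95% interval of 11.5 to 2640 that covers counting error only (adjusted p = 1.29e-05, edgeR). The fitted log2 fold change of Ugt8a was 5.63, and 7.60 without Control replicate 2, which held the 1 Control count, so its size is poorly determined. Fa2h, the hydroxylase of the fatty acids in these lipids, had 1 to 3 counts in Bcat1-KO libraries and 24 to 34 in Control libraries. The log2 fold change of Fa2h was -4.06 ± 0.42 (SE, edgeR adjusted p = 5.77e-06). Neither gene reached 1 CPM on average in either arm, so both stayed among the lowest tested genes.

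**Figure D3:**
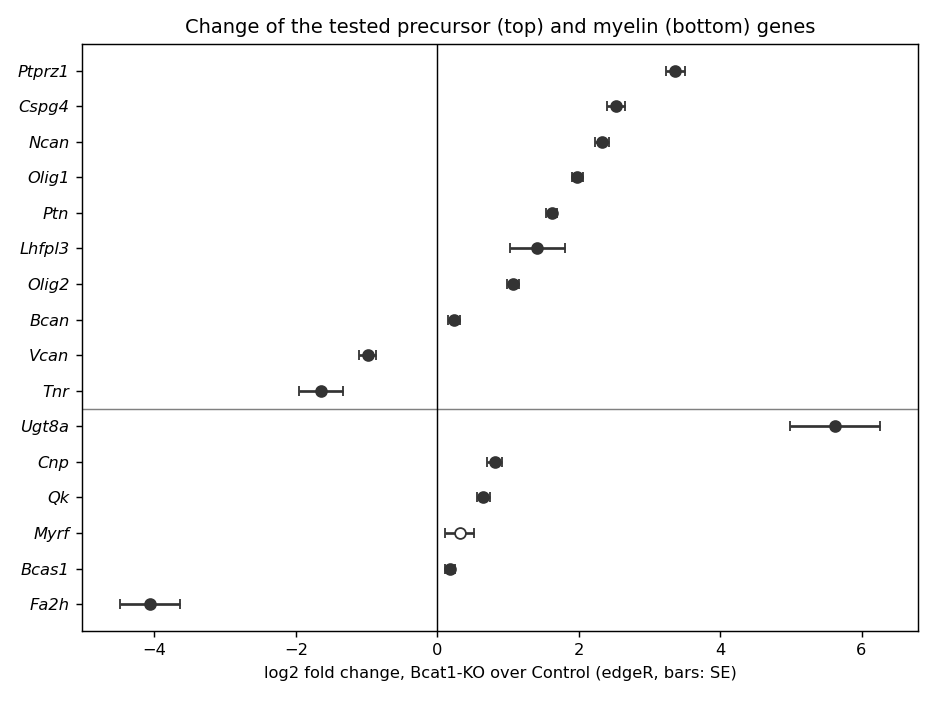
Log2 fold change of Bcat1-KO over Control with its standard error (edgeR) for the 16 tested genes, filled where the adjusted p passed 0.05 and open for Myrf, which did not. The precursor genes run from Ptprz1 at 3.37 to Tnr at -1.64, and the myelin genes from Ugt8a at 5.63, which rests on 1 Control count, to Fa2h at -4.06.

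The genes of the myelin sheath itself stayed silent in both arms. Silent means here at most 3 counts in each of the 6 libraries, and 9 of the 28 genes met this, 2 precursor and 7 myelin genes. Mog and Mag, surface glycoproteins of myelin, and Ermn, a cytoskeletal protein of mature oligodendrocytes, had 0 counts everywhere, as did Neu4 and Gpr17. Omg, oligodendrocyte myelin glycoprotein, and Mal, a lipid raft protein of compact myelin, had 1 count each, both in a Bcat1-KO library. Opalin, a membrane protein of mature oligodendrocytes, had 0 to 2 counts in Bcat1-KO libraries and 0 to 3 in Control libraries. Enpp6, an enzyme of newly forming oligodendrocytes, had 3, 2 and 3 counts in Bcat1-KO and 0 in every Control library. The exact 95% interval of the ratio of summed scaled counts begins at 1.44 for Enpp6, for counting error only.

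Another 3 myelin genes lay just above that limit and under the filter, so they had no test. Mbp, which encodes the basic protein that compacts the sheath, had 5, 3 and 0 counts in Bcat1-KO and 1, 0 and 1 in Control. Mobp, another basic protein of compact myelin, had 0 counts in every Bcat1-KO library and 2, 2 and 4 in Control. The exact 95% interval of the same ratio for Mobp reaches up to 0.495. Cldn11, the tight junction claudin of myelin, had 1, 4 and 1 counts in Bcat1-KO and 4, 6 and 3 in Control. At this depth a count of 0 in 1 library still allows a level of up to 3 counts, or 0.078 to 0.103 CPM.

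**Figure D4:**
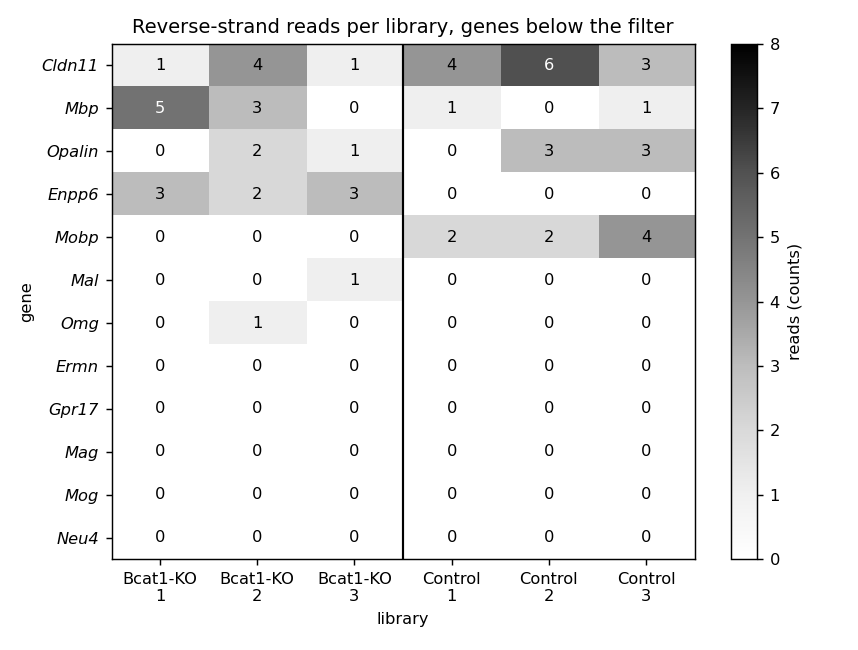
Raw reverse-strand counts of the 12 genes below the filter in each library, Bcat1-KO left of the line and Control right. No cell exceeds 6 counts, and 5 genes are at 0 in all 6 libraries.

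Genes of the lineage outside these 28 were set beside them. Here too a gene that passes the filter through 1 arm alone has to differ. Counts and medians of these further lists therefore describe the genes and are no test of the lists. Of 26 further precursor genes 21 were tested, with 17 higher and 2 lower (Emid1 and Lhfpl4), and a median log2 fold change of 2.31. Among those whose mean log2 CPM was 0 or more, the largest changes were in the adhesion molecule genes Cntn1, with 32 ± 1.5 CPM in Bcat1-KO and 0.135 ± 0.0927 CPM in Control, and Dscam, with 9.95 ± 1.59 CPM in Bcat1-KO and 0.0545 ± 0.0519 CPM in Control (SD, n = 3 each). Xylt1, which starts the glycosaminoglycan chains of proteoglycans, stood at 53.5 ± 4.29 CPM in Bcat1-KO and 0.558 ± 0.138 CPM in Control. Sox6, a factor that holds precursors immature, stood at 90.4 ± 8.43 CPM in Bcat1-KO and 4.81 ± 0.43 CPM in Control. Gpr37l1, with 1.84 ± 0.771 CPM in Bcat1-KO and 0.0967 ± 0.0568 CPM in Control, and Rlbp1, with 1.99 ± 0.228 CPM in Bcat1-KO and 0.269 ± 0.0655 CPM in Control, rose too.

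Some defining precursor genes other than Olig2 did not pass the test or were not detected, and they were singled out after their values were seen. Pdgfra, the PDGF receptor of precursors, held 22.6, 20.2 and 22.1 CPM in Bcat1-KO, against 21.9, 20.5 and 22.9 CPM in Control (log2 fold change -0.01 ± 0.08 SE, edgeR adjusted p = 0.933). Nkx2-2 held 44.4 ± 1.13 CPM in Bcat1-KO and 40.9 ± 1.7 CPM in Control (log2 fold change 0.12, adjusted p = 0.14, edgeR). The arms did not overlap for Nkx2-2. It was called higher with limma-trend but lower with the median of 51 neighbouring genes removed. Sox10, the factor needed with Myrf for myelin gene expression, had 1 count in Bcat1-KO and 0 in Control over all libraries. The name of the gene set is therefore used for the genes and not for the cells.

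Of 47 further genes of maturing oligodendrocytes 29 were tested, with 13 higher and 9 lower and a median log2 fold change of 0.20. Another 13 were silent, and Gjb1, Tmem125, Klk6, S1pr5, Zfp488 and Zfp536 had 0 counts in every library. Nfasc, a cell adhesion molecule of the axon-glia junction, stood at 0.838 ± 0.315 CPM in Bcat1-KO and 15.8 ± 0.612 CPM in Control. Tubb4a, a tubulin of oligodendrocytes and neurons, stood at 0.209 ± 0.0923 CPM in Bcat1-KO and 6.58 ± 0.721 CPM in Control. Adamts4, a protease that cleaves lecticans, fell to 90.6 ± 6.57 CPM in Bcat1-KO, against 275 ± 20.1 CPM in Control. Hhip, Plxnb3 and Car2 rose by log2 fold changes of 2.94, 2.67 and 1.85.

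**Figure D5:**
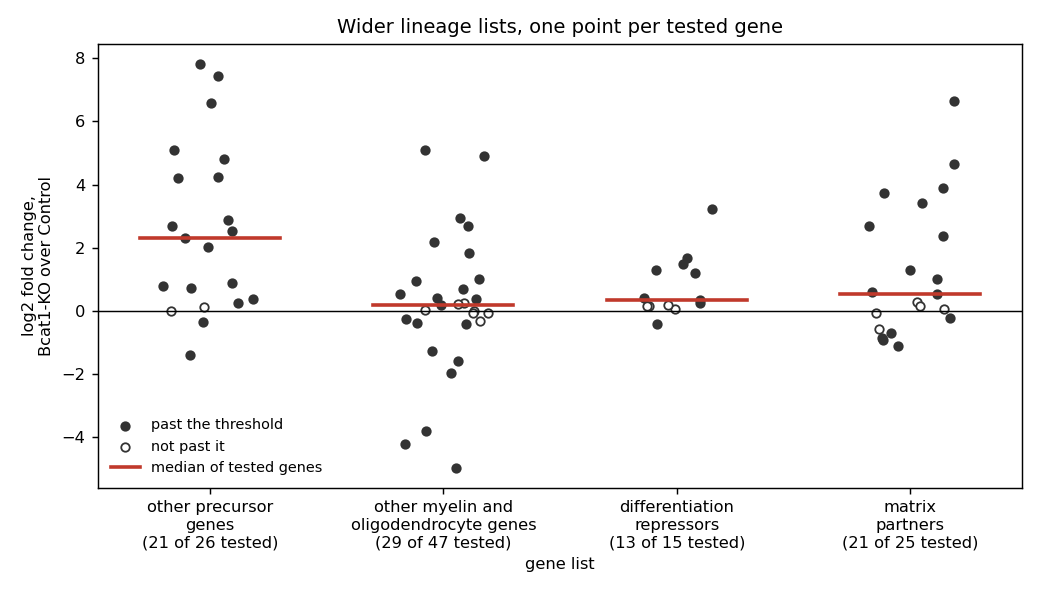
Log2 fold change of Bcat1-KO over Control for the tested genes of 4 further lists, filled where the adjusted p passed 0.05, with the median of the tested genes as a bar. Medians are 2.31 for further precursor genes, 0.20 for further myelin and oligodendrocyte genes, 0.34 for repressors of differentiation and 0.54 for matrix partners.

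Genes listed here as holding precursors back from maturing were 8 higher and 1 lower (Hes1) among 13 tested of 15, with a median log2 fold change of 0.34. What they do in these cells was not tested, and Sox2 and Sox9 are counted again among the markers below. Lingo1, a membrane protein that limits myelination, stood at 35.5 ± 4.59 CPM in Bcat1-KO and 11.1 ± 0.728 CPM in Control. Hes5, Sox9, Sox2, Id3 and Id2 rose by log2 fold changes of 3.22, 1.48, 1.31, 1.18 and 0.42. Among the matrix partners of the proteoglycans, 21 of 25 were tested, 11 were higher and 5 lower, with a median of 0.54. Cspg5, a further brain proteoglycan, stood at 49.8 ± 3.24 CPM in Bcat1-KO and 3.35 ± 0.439 CPM in Control. The enzymes that build, sulfate or epimerise the chains did not move one way. Chst7, Ust and Dse rose by log2 fold changes of 3.75, 2.36 and 1.29. The sulfotransferase Chst3 fell to 48.3 ± 3.72 CPM in Bcat1-KO, against 88.3 ± 1.53 CPM in Control, and Csgalnact1 and Chpf2 fell too, with log2 fold changes of -1.12 and -0.69. Chst12 did not pass the test (log2 fold change 0.05). Adamts5, a lectican protease, stood at 6.73 ± 0.658 CPM in Bcat1-KO and 0.0639 ± 0.0548 CPM in Control, opposite in direction to Adamts4. Cd44, which binds hyaluronan, rose by a log2 fold change of 3.41.

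Markers of other cell types were set beside these results. Of 10 astrocyte markers 9 were tested, with 8 higher and 0 lower, and a summed level of 1729 to 1774 CPM in Bcat1-KO and 548 to 607 CPM in Control. Their part in the changes of the precursor genes was not tested. Of 10 glioblastoma stem cell markers 9 were tested, with 6 higher and 1 lower, and sums of 1651 to 1863 CPM in Bcat1-KO and 1037 to 1077 CPM in Control. They include Olig2 and share Sox9 with the astrocyte list, Sox2 and Sox9 with the repressors, and Cd44 with the matrix partners. Nes, an intermediate filament of neural stem cells, was present at 241 ± 19.8 CPM in Bcat1-KO and 258 ± 9.32 CPM in Control, while Fut4 had 0 counts. Neuron markers were 3 higher and 1 lower among 5 tested of 10, with sums of 33.2 to 45.5 CPM in Bcat1-KO and 55 to 57.7 CPM in Control. Mural and fibroblast markers were 0 higher and 5 lower among 5 tested of 10, with sums of 15.6 to 17.6 CPM in Bcat1-KO and 84.7 to 90.5 CPM in Control. Microglia and endothelium were at or near 0, with sums of 0.413 to 0.665 and 0.388 to 0.832 CPM in Bcat1-KO, against 0.275 to 0.477 and 0.826 to 1.05 CPM in Control. The microglial genes C1qa, C1qb, C1qc, P2ry12 and Itgam and the endothelial gene Cldn5 had 0 counts in every library.

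Of 223 values of the 16 tested genes under 14 alternatives, 212 kept their direction and their side of the threshold, 11 kept the direction but missed the threshold, and 0 changed sign. These 11 belonged to Bcan, Bcas1 and Lhfpl3. With the median of 51 neighbouring genes on the chromosome removed, the log2 fold changes of Olig1, Olig2, Ptprz1, Ncan and Vcan were 1.88, 0.97, 3.24, 2.82 and -0.91. Between the arms 9 of the 10 tested precursor genes and 6 of the 6 tested myelin genes did not overlap, as was true of 67.7% of all tested genes.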

How the data were processed

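Total RNA was purified on columns with DNase digestion and made into stranded mRNA libraries, per the labels' protocols. The submitters' processing notes name STAR 2.5.3a, featureCounts and the mm10 build, with the annotation release not given in the sources used here. The deposited counts are raw reads per gene, given unstranded and for each strand, per the file headers. Reverse-strand reads were 96.4% to 96.5% of the stranded reads and were used. TPM values were computed by the authors over all genes of a library and were used to compare genes per length and as an alternative.

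Counts were filtered with edgeR 4.0.16's expression filter, scaled by TMM and tested with its quasi-likelihood test, without covariates, over 14020 genes with Benjamini-Hochberg adjustment. The standard error is the log2 fold change divided by the square root of F. Ratios between genes used an exact permutation test over libraries. The filter removed 0.0511% of the counts. Alternatives were 2 other scalings, no filter, DESeq2 1.42.0, unstranded counts, limma-trend (limma 3.58.1) on log2(TPM + 1), a replicate block, removal of the median of 51 neighbouring genes, and leaving out each replicate. The tests were checked on simulated data. No library was left out, and replicates differed beyond counting noise (chi-square per gene 3.78 to 30.5). The genes and all lists, including the marker lists, were chosen with earlier results of these data known. Every one of the 28 genes is accounted for, with full values for those with a mean of at least 1 CPM in 1 arm. From each other list the rule names at most 6 genes, the most changed of those past the threshold whose average log2 CPM is 0 or more, and markers at 0 in every library. Other genes of these lists, among them Pdgfra, Nkx2-2, Sox10, Emid1, Lhfpl4, Hes1, Chst3, Chst12, Csgalnact1, Chpf2 and Nes, were named after their values were seen. R 4.3.3 was used. Some results of the lists are not reported here.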

Additional observations from a re-analysis of the deposited data

Results flagged for a closer look

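Reads on the strand opposite to the gene, which the main test did not use, were higher in every Bcat1-KO library than in every Control library for 4 genes with over 10 such reads in each Bcat1-KO library. The forward-strand level of Ptn was 3.68 CPM in Bcat1-KO and 1.14 CPM in Control. Olig2 had 1.16 forward-strand CPM in Bcat1-KO and 0.517 in Control. The level for Qk was 0.793 CPM in Bcat1-KO and 0.362 CPM in Control. For Ncan it was 0.653 CPM in Bcat1-KO and 0.130 CPM in Control. These reads were 0.134% to 0.681% of the stranded reads at these genes, and the reverse-strand levels moved with them.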

How the results depend on the processing

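The counts of members and of all genes stayed within 1.5 times under the alternatives run, with these exceptions. With no filter on low counts, 2 myelin genes were lower (Fa2h and Mobp), Enpp6 was called higher while Bcas1 was not, 4 further precursor genes were lower (Cacng5 and Matn4 in addition) and 2 repressors were lower (Hes1 and Id4). DESeq2 likewise gave 4 further precursor genes and 2 repressors lower. With limma-trend on log2(TPM + 1), 1 further precursor gene was lower, and leaving out each replicate gave 1 to 3, with 1 without Control replicate 1. That transformation also shrank the log2 fold changes of the low genes Tnr, Lhfpl3, Ugt8a and Fa2h to -0.19, 0.32, 0.58 and -0.92. Silent genes numbered 9 at a floor of 3 counts, 12 at 10 counts and 8 with unstranded counts. Lhfpl3 could not be fitted with unstranded counts, where it fell below the filter. Replicate numbers shared by the arms did not pair the libraries, with correlations of -0.05, -0.07 and 0.16 between deviations. With a replicate block 4448 genes were higher and 4214 lower, against 4480 and 4255 without it, and Bcan missed the threshold (adjusted p = 0.0579). Depth limits the silent genes: a count of 0 in 1 library still allows a level of up to 3 counts.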

Other observations

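Genes of peripheral myelin, made by Schwann cells, were looked at because they share Mbp, Mag and Mal with oligodendrocytes. Of 8 Schwann cell markers 4 were tested, with 1 higher and 2 lower, and sums of 14.1 to 18.8 CPM in Bcat1-KO and 24.6 to 25.3 CPM in Control. The 1 higher marker and 1 of the 2 lower markers changed by 2-fold or more. Pmp2 and Foxd3 had 0 counts in every library. Drp2, part of the complex that links peripheral myelin to its matrix, fell by 1.49 on the log2 scale in Bcat1-KO (adjusted p = 6.17e-06, edgeR).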
